A study of Mus musculus with 6 samples.

Results

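Circular RNAs (circRNAs) are closed loops made when a downstream splice donor joins an upstream acceptor. Having no free end, they resist exonucleases such as RNase R, which is used to deplete linear RNA before a circRNA assay. The probes described here are the circRNA probes that outshone every negative probe on each of 6 arrays. They were chosen by their measured level: a probe belonged when its processed signal exceeded the highest of the 15 negative probe means on all 6 arrays. This held for 1805 of 14236 circRNA probes (12.7%), each a single spot per array. The level chose the set, so levels are a description and carry no test. The brightness of a spot depends on the probe as well as on its RNA, so these are called bright probes rather than abundant RNAs, and no level of 1 probe is set against another as an amount of RNA.

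The arrays came from BV2 cells, an immortalized mouse microglial line grown in 6-well plates. In 3 arrays the cells had received 10 ng/ml of recombinant murine IL-4 for 24 h, and in 3 they had received PBS over the same time. The study asked which circRNAs accompany M2 polarization, the alternatively activated state that IL-4 induces in macrophages and microglia. Sample descriptions also mention human blood, and the design text calls the controls untreated, so the groups follow the titles. No label says that the replicates came from separate cultures. The p-values then speak only of the spread between these samples, which may be technical. Of 53 marker genes listed for microglia, the IL-4 response, other cell types and hosts of well-known circRNAs, only Mbp, which encodes a myelin protein, had a named probe. Mbp averaged 15.1 to 22.4 per array, under the brightest negative on all 6. The labelled cell type and the response to IL-4 could therefore not be checked on these arrays.

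The threshold was set by the same negative probe, MM9NEGATIVE016, on all 6 arrays, and it was not level between them. Its mean signal was 132, 152 and 230 on IL-4 replicates 1 to 3, and 215, 247 and 184 on PBS replicates 1 to 3. PBS replicate 2 thus had the strictest threshold and IL-4 replicate 1 the loosest. A dim probe could enter only if it was high on PBS replicates 1 and 2 and IL-4 replicate 3, so near the threshold the rule itself fixes part of the order of the arrays and of the difference between treatments. The circRNA probes above it numbered 3512, 2854 and 2212 on the IL-4 arrays, and 2294, 1956 and 2599 on the PBS arrays. For 1178 of the 1805 probes (65.3%) the smallest margin lay on PBS replicate 2, and for 320 (17.7%) on IL-4 replicate 3. Another 1757 probes passed on 1 to 5 arrays and 10674 on none.

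Membership at the edge turned on margins far below the error that Feature Extraction reports for a spot, with a median of 10.0% of the signal on each array. The nearest probe inside was ASCRP4003797, with signals of 212, 195 and 230 on the IL-4 arrays and 228, 269 and 195 on the PBS arrays. It exceeded the threshold of IL-4 replicate 3 by 0.0001 on the log2 scale. The nearest probe outside, ASCRP4008432, read 180, 165 and 328 with IL-4, against 279, 461 and 184 with PBS, and missed only on PBS replicate 3. ASCRP4008301, also just outside, read 370, 350 and 348 with IL-4, against 320, 247 and 370 with PBS. It was brighter than ASCRP4003797 on 5 of 6 arrays and was kept out by PBS replicate 2 alone.

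**Figure D1:**
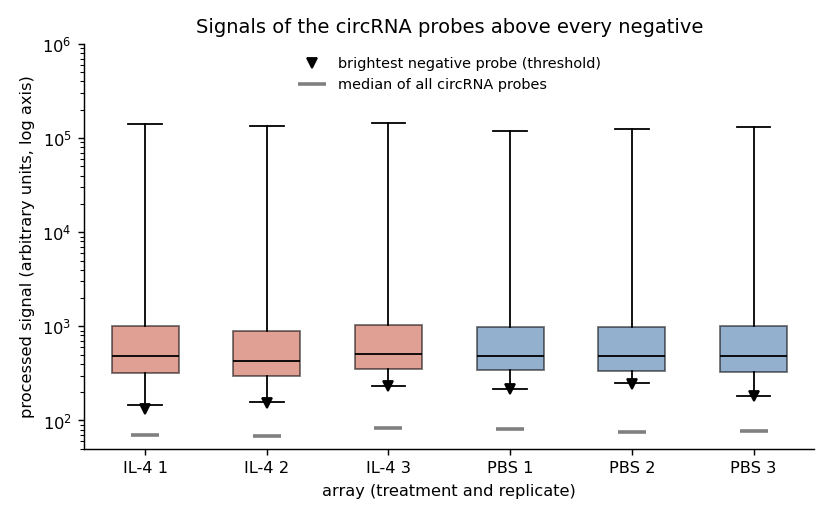
Processed signal of the 1805 bright circRNA probes on each array (log axis). Boxes give the quartiles and the median, whiskers the lowest and highest probe, triangles the brightest negative probe that set the threshold, and grey bars the median of all circRNA probes; member medians lie between 433 and 504, while the triangles vary from 132 to 247.

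Most of the bright probes were only moderately bright. The mean over arrays, taken on the log2 scale, ran from 211 to 128817, with quartiles of 332, 471 and 974. A mean under 500 was found for 962 probes (53.3%), and 52 exceeded 10000. Together the 1805 probes held 78.1% to 81.7% of the summed circRNA signal of an array. No spot of theirs carried an outlier flag or was saturated, and all were well above local background.

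The 10 brightest probes read between 70293 and 144918 on every array. ASCRP4006342, the brightest, read 141349, 132244 and 131974 with IL-4, against 112371, 125525 and 131310 with PBS. ASCRP4013042 read 131604, 129924 and 136229 with IL-4, against 118064, 120548 and 125862 with PBS. In both probes the raw IL-4 signals lay above the PBS signals, by less than the gap between replicates in some pairs. After each array was scaled to its 75th percentile the groups overlapped for both. ASCRP4006710 read 134306, 133171 and 144918 with IL-4, against 109000, 114816 and 121719 with PBS, and did not overlap after scaling. Its log2 difference, IL-4 minus PBS, was 0.34 (95% interval 0.06 to 0.61, limma adjusted p = 0.690). Across the 10, differences ran from 0.12 to 0.36 with limma adjusted p from 0.673 to 0.827. In 5 of 10 all IL-4 arrays lay above all PBS arrays after scaling (5.76% of all bright probes, 6.79% of all tested). The direction of 6 of these 10 turned negative under one or more of quantile normalization, cyclic loess and the deposited value table. Quantile normalization and cyclic loess take out much of any shift shared by the brightest probes.

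Among the 1805 probes, 0 passed an adjusted p under 0.05 between IL-4 and PBS in the limma fit over 14062 circRNA probes, where 0 passed as well (0%). The lowest adjusted p of a bright probe was 0.247. At an unadjusted p under 0.05, 100 were higher with IL-4 (5.54%, against 4.14% of all probes tested) and 51 lower (2.83%, against 2.33%). Adding a minimum of 1.5-fold left 12 higher (0.665%, against 0.533% of all) and 14 lower (0.776%, against 0.263%). These shares were near the background except for the lower direction of the last rule, where the count was 14. The thresholds of the set were unequal, highest on PBS replicate 2 and next on IL-4 replicate 3. Their part in this count was not tested. Scaling moved that split to 5 higher and 19 lower under quantile normalization, where all tested probes gave 55 and 40. It was 5 and 21 under cyclic loess (57 and 42 over all) and on the median of the bright probes (41 and 56 over all). It was 6 and 21 in the deposited table (17 and 34 over all) and 4 and 31 without scaling (34 and 96 over all).

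Treatment groups that did not overlap made up a slightly smaller share of the bright probes than of all probes tested, which was not tested. All 3 IL-4 arrays lay above all 3 PBS arrays for 104 bright probes (5.76%, against 6.79% of all tested), and below them for 63 (3.49%, against 4.51%). The median absolute log2 difference was 0.16 in the bright probes and 0.12 in all tested. For a bright probe the median half-width of the 95% interval was 0.33 and the median standard error was 0.15, so a typical difference was about as large as its standard error.

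The 10 bright probes of lowest p that were higher with IL-4, taken only from those without overlap between groups, differed by 1.41- to 1.65-fold, and none passed the adjusted threshold. ASCRP4003985 read 1253, 1161 and 1481 with IL-4, against 857, 771 and 865 with PBS. All 3 IL-4 arrays were above all 3 PBS arrays, by 0.72 on the log2 scale (95% interval 0.46 to 0.98, adjusted p = 0.247). ASCRP4004980 read 1217, 1154 and 1378 with IL-4, against 850, 724 and 831 with PBS, a difference of 0.72 (interval 0.45 to 0.99, adjusted p = 0.247). ASCRP4004597 read 663, 648 and 701 with IL-4, against 471, 385 and 464 with PBS, a difference of 0.70 (interval 0.41 to 0.99, adjusted p = 0.247). In these 3 probes PBS replicate 2 was the lowest array and IL-4 replicate 3 the highest in raw signal.

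For each of these probes the bright probe that followed it most closely over the 6 arrays was looked up, as a description. The nearest of many is close by construction, and these probes were picked for like differences. The SD over arrays of the log2 difference between ASCRP4003985 and ASCRP4004980 was 0.04. ASCRP4004597 followed ASCRP4004980 with an SD of 0.05, and ASCRP4002846 followed ASCRP4003985 with an SD of 0.07. A second pair was ASCRP4011665, with 683, 624 and 626 on IL-4 and 470, 420 and 444 on PBS, and ASCRP4001973, with 2760, 2422 and 2689 on IL-4 and 1954, 1759 and 1837 on PBS. Their SD was 0.05. Closeness was over 6 arrays only, and whether paired probes read the same RNA was not tested.

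ASCRP4005038 was the one bright probe above 10000 among these 10. It read 13430, 13047 and 16529 with IL-4, against 8967, 8702 and 11955 with PBS. The groups did not overlap, and the log2 difference was 0.63 (interval 0.29 to 0.96, adjusted p = 0.379). PBS replicate 3 was the brightest PBS array, and its gap to the IL-4 arrays the smallest.

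The 10 probes of lowest p that were lower with IL-4, again taken from those without overlap, differed by 1.41- to 1.95-fold, and none passed. ASCRP4006403 read 526, 522 and 773 with IL-4, against 1375, 1410 and 962 with PBS, a log2 difference of -0.96 (interval -1.31 to -0.61, adjusted p = 0.247). ASCRP4012739 read 203, 215 and 269 with IL-4, against 469, 436 and 323 with PBS, a difference of -0.75 (interval -1.07 to -0.44, adjusted p = 0.247). ASCRP4012636 read 390, 349 and 448 with IL-4, against 796, 841 and 518 with PBS, a difference of -0.75 (interval -1.12 to -0.39, adjusted p = 0.316). In all 3 probes IL-4 replicate 3 and PBS replicate 3 were the neighbouring arrays, and the other 4 lay further apart. ASCRP4010888 read 1294, 1709 and 1804 with IL-4, against 2982, 2420 and 2430 with PBS, and ASCRP4011756 read 303, 326 and 344 with IL-4, against 473, 499 and 495 with PBS. In these last probes PBS replicate 3 lay with the other PBS arrays. Within-group SD was larger for PBS than for IL-4 in this list, with medians of 0.25 and 0.11 on the log2 scale.

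**Figure D2:**
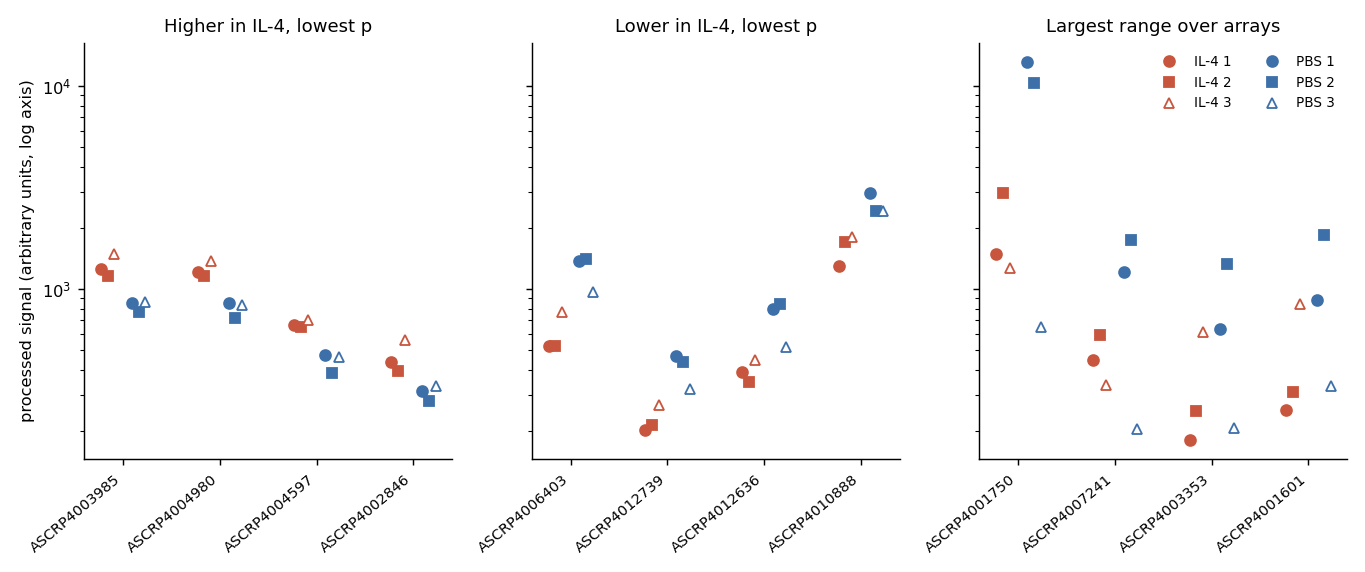
Processed signal (log axis) of 12 bright probes on each array, red for IL-4 and blue for PBS, with open triangles for replicate 3. The 4 probes of lowest p in each direction were taken from those whose groups do not overlap, while among the 4 of largest range, such as ASCRP4001750 at 13171, 10292 and 653 with PBS, PBS replicate 3 lies far from the other PBS arrays.

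Some of the largest ranges over the arrays lay within a group, and others between groups. The highest array exceeded the lowest by a median of 1.43-fold after scaling, by at least 2-fold in 127 bright probes (7.04%) and by at least 4-fold in 9. Among the other tested probes 3.60% reached 2-fold. ASCRP4001750 had the largest range, 18.9-fold, with 1484, 2970 and 1267 on IL-4 and 13171, 10292 and 653 on PBS. Its lowest and its highest array were both PBS, and the log2 difference was -1.25 with an interval of -3.20 to 0.70. ASCRP4007241 had a like order, with 446, 592 and 336 on IL-4 and 1211, 1748 and 203 on PBS.

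Other probes of large range were high on IL-4 replicate 3 and on PBS replicates 1 and 2. ASCRP4003353 read 180, 251 and 613 with IL-4, against 634, 1324 and 208 with PBS. ASCRP4001601 read 253, 312 and 845 with IL-4, against 884, 1848 and 335 with PBS. ASCRP4004748 read 326, 494 and 1086 with IL-4, against 1344, 1937 and 588 with PBS. The groups overlapped in all 5 probes of largest range, whose adjusted p ran from 0.753 to 0.811.

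The order of arrays seen most often among bright probes did not follow treatment. Each probe was marked by the arrays on which its scaled log2 signal lay above its own mean over the 6 arrays. IL-4 replicates 1 and 2 with PBS replicate 3 were the arrays above the mean in 559 bright probes (31.0%), and in 7.74% of the other tested probes. The opposite mark, IL-4 replicate 3 with PBS replicates 1 and 2, was held by 152 (8.42%, against 6.76% of others). The treatment marks were less common: the 3 IL-4 arrays together in 68 (3.77%, against 3.66%) and the 3 PBS arrays together in 31 (1.72%, against 2.47%). Of the 127 probes of at least 2-fold range, 35 had the commonest mark (27.6%, against 3.63% of other probes of that range) and 33 its opposite (26.0%, against 24.3%). These marks were found after the values were seen and were not tested. The bright probes also shared an offset from the scaling point. Their median lay above the 75th percentile by 1.90, 1.79 and 1.72 log2 units on the IL-4 arrays. On the PBS arrays it lay above by 1.70, 1.76 and 1.81. This offset was highest on the 3 arrays of the commonest mark, and its part in the marks was not tested.

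An example of the commonest mark, picked after its values were seen as the one of largest range, was ASCRP4007173. It read 2556, 1925 and 2139 with IL-4, against 1668, 1203 and 2653 with PBS. IL-4 replicate 1 and PBS replicate 3 were its highest arrays, and PBS replicate 2 its lowest. Over all bright probes, after the same scaling, IL-4 replicate 1 was the highest array in 736 (40.8%). PBS replicate 2 was the lowest in 551 (30.5%) and PBS replicate 1 in 426 (23.6%).

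**Figure D3:**
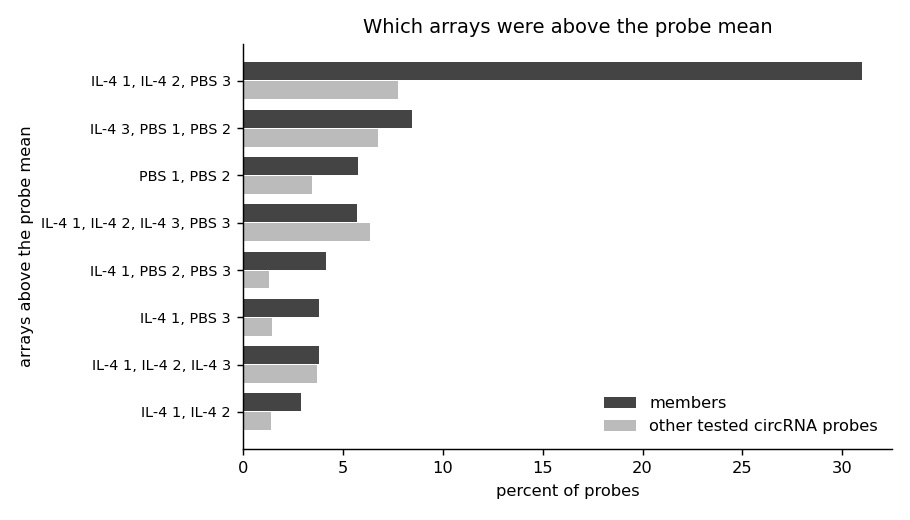
Percent of the 1805 bright probes (dark) and of the other tested circRNA probes (light) by the set of arrays above the probe mean, for the 8 commonest sets among bright probes. The top set, IL-4 replicates 1 and 2 with PBS replicate 3, holds 31.0% of bright probes and 7.74% of the others, while the 3 IL-4 arrays together hold 3.77% and 3.66%.

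Principal components of the bright probes, from the same scaled signals, gave the same order. The first component held 70.7% of their variance, with scores of 9.71, 4.77 and -1.18 for the IL-4 arrays and -8.75, -12.6 and 8.04 for the PBS arrays. PBS replicate 3 fell among the IL-4 arrays on it. The marks, the highest and lowest arrays and this component were read under this scaling only. Across the 1805 probes, which are not independent replicates, Pearson r between log2 signals averaged 0.988 ± 0.00742 (SD, 3 pairs) within IL-4, 0.966 ± 0.0207 (3 pairs) within PBS and 0.974 ± 0.0146 (9 pairs) across treatments.

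Some values outside the circRNA probes moved with that order, and most did not. The brightest negative was lower on IL-4 replicates 1 and 2 (132 and 152) and PBS replicate 3 (184) than on IL-4 replicate 3 and PBS replicates 1 and 2 (230, 215 and 247), the reverse of the commonest mark. Of 50 catalogue probes for linear transcripts, 9 were above their mean on IL-4 replicate 3 and PBS replicates 1 and 2, and 2 on the other 3 arrays, so 39 held neither mark. Among the 15 custom probes 3 held the commonest mark and 2 its opposite, among the 14 circRNA controls 2 and 3, and among the 15 negatives 0 and 2. The probe of Actb, which encodes a cytoskeletal actin and is linear RNA that RNase R should deplete, read 467, 417 and 684 with IL-4, against 559, 499 and 430 with PBS. Chosen after its values were seen, the probe of the olfactory receptor gene Olfr1307 read 185, 222 and 393 with IL-4, against 425, 897 and 225 with PBS. The part of incomplete digestion or nonspecific signal in the order of the arrays was not tested.

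The size of the deviations differed with brightness. In the 388 bright probes with a mean signal of 512 to 1024, the median deviation from the probe mean was 0.17 on IL-4 replicate 1, -0.11 on PBS replicate 2 and 0.06 on PBS replicate 3. In the 76 probes between 4096 and 16384 it was 0.29, -0.33 and 0.23 on the same arrays. In the 42 probes above 16384, IL-4 replicates 1 and 2 stood at 0.20 each, PBS replicates 1 and 2 at -0.21 and -0.15, and PBS replicate 3 at -0.02. The 98 probes of 128 to 256 ran the other way, at -0.07, 0.17 and -0.10 on IL-4 replicate 1 and PBS replicates 2 and 3. The unequal thresholds that admitted them favour this order, and nothing is read from it.

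**Figure D4:**
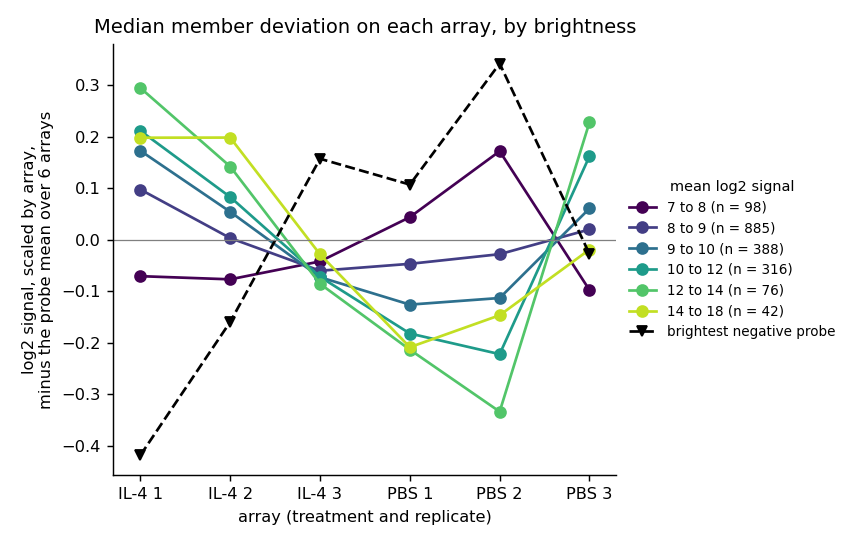
Median deviation of the bright probes from their own mean over the 6 arrays, by class of mean log2 signal, on each array, with the brightest negative probe as a dashed line. Classes from 10 to 14 are positive on IL-4 replicates 1 and 2 and PBS replicate 3 and negative on the other arrays, where the negative probe is high. The dimmest class lies near the rule's unequal thresholds, which can bear on its values.

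The difference between treatments differed with brightness as well. The median log2 difference, IL-4 minus PBS, was 0.11 from 512 to 1024, 0.17 from 1024 to 4096 (316 probes), 0.24 from 4096 to 16384 and 0.23 above. The share of probes higher with IL-4 went from 67.8% between 512 and 1024 to 95.2% in the brightest class (54.6% of all tested). In that class 19 of 42 (45.2%) had an unadjusted limma p under 0.05 and 0 an adjusted one. Such an unadjusted p was found for 151 of the 1805 bright probes and 909 of the 14062 tested. Quantile normalization gives all arrays the same distribution, so much of a shift shared by the brightest probes is taken out whatever its origin. It left 0.06 and 0.03 in the 2 brightest classes. Under it 0 of 42 had an unadjusted p under 0.05, against 961 of all 14062 tested. Cyclic loess left 0.04 and -0.04, so the brightest class changed direction there. Cyclic loess likewise takes out differences between arrays that go with brightness. The size of this shift therefore depended on the scaling, and these methods cannot show where it came from. Below 512 the rule's thresholds bear on the value, which was 0.03 from 256 to 512 (885 probes) and -0.10 below that.

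**Figure D5:**
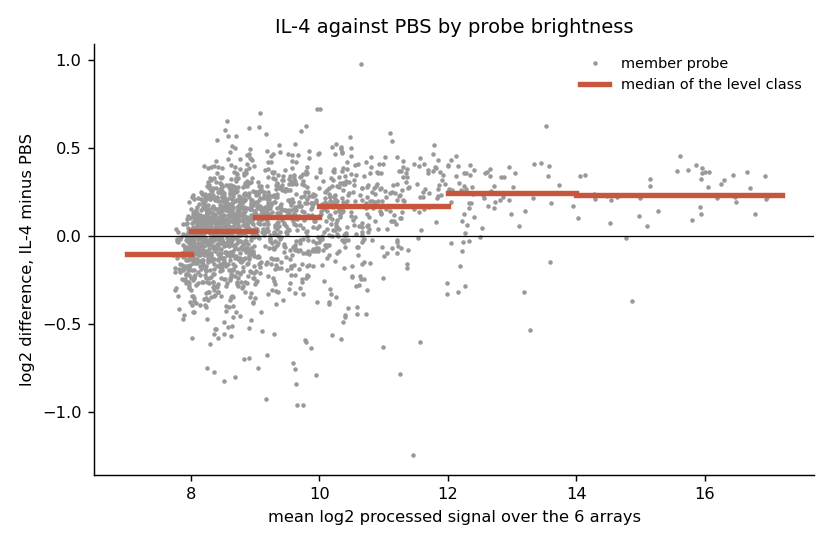
Log2 difference, IL-4 minus PBS, of each bright probe against its mean log2 signal (grey points), with the median of each class as a bar. The bars run from 0.11 between log2 signals of 9 and 10 to 0.24 and 0.23 in the 2 brightest classes, under scaling to the 75th percentile. Those of the dimmest classes, down to -0.10, lie where the thresholds of the rule can bear on the value.

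The count of bright probes that passed changed when PBS replicate 3 was left out. Without it, 146 passed the adjusted threshold, 87 higher with IL-4 (4.82%, against 1.74% of all tested) and 59 lower (3.27%, against 1.19%). Without any other single array the count was 0. With all 6 arrays weighted by their fit, at 0.42 for PBS replicate 3, 0.40 for PBS replicate 2 and 0.78 to 2.99 for the others, it was 125 (6.93%, against 3.78% of all tested). These 146 had a median difference of 1.62-fold without PBS replicate 3 and 1.38-fold with all 6 arrays. In 24 of them, 15 higher and 9 lower with IL-4, the groups did not overlap over all 6. By direction, that held for 5.76% and 3.49% of all bright probes and for 6.79% and 4.51% of all tested. ASCRP4001750 was the largest, 6.09-fold lower with IL-4 (adjusted p = 0.000798 without the array). Of the 20 probes of lowest p described above, 9 of the 10 higher with IL-4 and 8 of the 10 lower passed without PBS replicate 3. They had been picked for low p and no overlap on these same arrays, so this count gives no further support. Of the 10 brightest probes 0 passed, with adjusted p from 0.083 to 0.726. Nothing in the labels sets PBS replicate 3 apart, so the result with all 6 arrays stands as the comparison and the other as what it becomes without that array.

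The spread between replicates was wider with PBS than with IL-4 in most bright probes, as in most others. The median SD of a bright probe was 0.15 with IL-4 and 0.21 with PBS, and PBS was the wider in 72.0% of bright probes and 69.8% of the others. In the probes above 16384 the medians were alike, 0.129 with IL-4 and 0.130 with PBS. Over the bright probes, Pearson r was 0.988 between PBS replicates 1 and 2. PBS replicate 3 correlated with them at 0.963 and 0.947. Within IL-4 it ran from 0.980 to 0.994. Design probes above the threshold, with 10 spots each, had a median SD between spots of 0.04 to 0.06 on an array. A circRNA probe has 1 spot per array, so its own spread between spots was not measured.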

How the data were processed

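RNase R-treated RNA from 3 IL-4 and 3 PBS samples of BV2 cells was labelled with Cy3 by random priming and hybridised to 1-colour circRNA arrays, per the labels' protocols. Spots were quantified with Agilent Feature Extraction 11.0.1.1, per the file headers, and the submitters' processing notes also name limma. The deposited intensity is Feature Extraction's processed signal, background-subtracted and not normalized between arrays. The authors' deposited value table, on a log2 scale and normalized by them with steps not stated in the sources used here, served as an alternative.

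The highest mean of the 15 negatives (10 spots each, outlier flags left out) was each array's threshold. Log2 processed signal minus the array's 75th percentile was compared by limma 3.58.1 in R 4.3.3 (lmFit, eBayes, two-sided, no covariate), and the code was tested on simulated data. Benjamini-Hochberg adjustment covered the 14062 probes that 1 group or both had well above background in all 3 arrays, leaving out 174. Printed signals are unscaled, while folds and differences are scaled. The number of arrays limits the precision.

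Named probes were the 10 brightest, the 10 of lowest p per direction among probes whose groups did not overlap, those nearest the threshold, the 5 of largest range, and the closest followers. The set, lists and rules were chosen with earlier results of these data known. Probe identifiers were matched to no circRNA name, host gene, position or sequence, so host gene lists were not used here. Of 50 catalogue probes 44 were named through RefSeq. Alternatives were other scalings, background corrections, filters, weights, thresholds, a replicate block and leaving out each array. Same-numbered arrays did not deviate together over the bright probes (r = -0.44, -0.17 and -0.52), so the numbers were not taken as pairs.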

Additional observations from a re-analysis of the deposited data

Results flagged for a closer look

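Among the 94 design probes, which the comparison of circRNA probes between treatments leaves out, 3 passed an adjusted p under 0.05 between IL-4 and PBS (limma, adjusted over the 94). AS_circRNA_control3000007, a circRNA control by its name, averaged 1366, 1223 and 1469 with IL-4, against 916, 794 and 870 with PBS, a log2 difference of 0.73 (adjusted p = 0.0135). The catalogue probe of Hspb7, a small heat shock protein gene, averaged 329, 341 and 308 with IL-4, against 569, 556 and 543 with PBS, a difference of -0.69 (adjusted p = 0.0298). The catalogue probe of Gpi1, which encodes a glycolytic isomerase, averaged 207, 191 and 215 with IL-4, against 132, 141 and 95.03 with PBS, a difference of 0.84 (adjusted p = 0.0298). The groups did not overlap in any of the 3, PBS replicate 3 included. This count cannot be set against the 0 of the bright probes. A design value is a mean over spots, adjusted over 94 probes, while a circRNA probe has 1 spot and was adjusted over 14062. The unadjusted limma p was 0.000143 for AS_circRNA_control3000007. It was lower, at 8.87e-05 and 9.07e-05, for the bright probes ASCRP4006403 and ASCRP4003985, whose adjusted p was 0.247. The Gpi1 probe lay under the brightest negative on IL-4 replicate 3 and on all 3 PBS arrays. What these probes bind after RNase R digestion was not tested.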

How the results depend on the processing

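No bright probe passed the adjusted threshold under any other scaling, background correction, filter or variance model run, nor with the replicate block, which gave 0 at the adjusted and 32 at the looser threshold. Array weights gave 125 (532 over all tested probes), and leaving out 1 array gave 0 to 146, the highest without PBS replicate 3 (412 over all). Without that array, the count was 57 under quantile normalization (144 over all) and 211 with the deposited values (527 over all). The looser count of 26 (112 over all) became 16 with normexp (23), 17 with normexp and quantile normalization (24) and 89 with array weights (325), where parentheses give the count over all. With 1 array left out it was 13 to 172: 13 without PBS replicate 2 (116), 14 without PBS replicate 1 (81) or IL-4 replicate 1 (100), 63 without IL-4 replicate 3 (235) and 172 without PBS replicate 3 (495). Without PBS replicate 3 it was 139 under quantile normalization (445) and 126 in the deposited table (272). The causes were not tested.

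The direction of 6 of 35 named probes reversed, all among the 10 brightest, and the other 29 kept theirs under the settings run, except that ASCRP4006652 stood at 0 in the deposited table, with or without PBS replicate 3, and with normexp and quantile normalization. Under quantile normalization the log2 difference was -0.030 for ASCRP4006342, -0.040 for ASCRP4013042, -0.14 for ASCRP4004008, -0.082 for ASCRP4008791 and -0.044 for ASCRP4006712. With normexp and quantile normalization it was -0.061 for ASCRP4013042, -0.14 for ASCRP4004008, -0.019 for ASCRP4005922, -0.041 for ASCRP4008791 and -0.025 for ASCRP4006712. The deposited table gave -0.061, -0.14, -0.018, -0.039 and -0.023 for these 5. Without PBS replicate 3, quantile normalization gave -0.018 for ASCRP4006342, -0.047 for ASCRP4013042, -0.18 for ASCRP4004008, -0.079 for ASCRP4008791 and -0.051 for ASCRP4006712. Without it in the deposited table, values were -0.061 for ASCRP4013042, -0.24 for ASCRP4004008, -0.035 for ASCRP4008791 and -0.027 for ASCRP4006712. Cyclic loess, chosen after seeing the data, gave -0.097, -0.11, -0.19, -0.042, -0.12 and -0.088 for ASCRP4006342, ASCRP4013042, ASCRP4004008, ASCRP4005922, ASCRP4008791 and ASCRP4006712. No other setting reversed a named probe. Quantile normalization and cyclic loess take out much of any shift shared by the brightest probes. Some of the 10 could thus turn negative by the method alone. The part of this in the reversals was not tested.

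The set itself held 1806 to 2028 probes with 1 array left out, 2570 with the second brightest negative as threshold, 1721 with the brightest single negative spot and 2214 when all 3 arrays of 1 group sufficed. Its median absolute log2 difference stayed between 0.10 and 0.24 over the alternatives run.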

Other observations

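Bright probes were spread over the array and over probe identifiers. By eighths of the array, 11.8% to 13.8% of circRNA probes were bright along the rows and 11.02% to 14.0% along the columns, around the 12.7% of all. By eighths of the identifier order the share ran from 9.83% to 14.9%. In 276 cases (15.3%) the next identifier was bright as well.

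In the deposited value table, 90.4% to 94.2% of the 1805 highest circRNA values of an array belonged to the bright probes. Their median there was 8.94 to 8.98 on the log2 scale, against 6.36 to 6.37 for the other circRNA probes.

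Catalogue probes, which read linear transcripts, included some as bright as the set described. Of 50, 10 lay above the brightest negative on all 6 arrays and 35 on none. The probe of Pex11a, a peroxisomal membrane gene, averaged 1437, 1189 and 1194 with IL-4, against 842, 816 and 1245 with PBS. The probe of Apoe, an apolipoprotein gene that microglia express, averaged 331, 288 and 337 with IL-4, against 362, 391 and 337 with PBS.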
